A study of Mus musculus with 4 samples.

Results

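The genes of glycolysis and the citric acid cycle were followed in Purkinje cells, the output neurons of the cerebellar cortex. The set was fixed by gene symbol as 43 enzymes, carriers and regulators, from hexokinase to malate dehydrogenase. Of these, 39 had at least 1 probe set annotated with that symbol alone, among 18193 genes so named on the array. Gpi1, Gapdh, Eno1 and Mpc2 had none and were not analysed here. Where a gene had several probe sets, the one with the highest mean gives its level. Purkinje cells were taken by laser capture from frozen cerebellum of male C57BL/6J mice aged 8 weeks, which were intact. About 1 ng of RNA was amplified and hybridized to Affymetrix arrays. A single group held all 4 samples, with 2 animals giving 2 samples each, called here 1-1, 1-2, 2-1 and 2-2 by animal and sample. All were untreated and carry the same labels, so the only comparison the samples allow is between the 2 animals. The labels do not say whether the samples of 1 animal were separate captures, and p-values measure only the spread between these samples.

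Glycolysis splits glucose into pyruvate in the cytosol. Pyruvate is then either reduced to lactate by lactate dehydrogenase or carried into the mitochondrion, where the pyruvate dehydrogenase complex turns it into acetyl-CoA for the citric acid cycle. The cycle oxidizes acetyl groups and hands electrons to the respiratory chain. Many steps have several isoforms from separate genes, used in different tissues. Purkinje cells fire spontaneously and are known for a high demand for ATP.

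Levels are log2 signals after quantile normalization, which gives each array the same distribution of values. They are listed below in the order of samples 1-1, 1-2, 2-1 and 2-2, and means carry the SD over the 2 animals. The deposited signals were brighter in animal 2, with trimmed means of 56.6 and 57.6 in animal 1 and 73.5 and 88.8 in animal 2. Each array's background bound was the 95th percentile of 75 marker genes of organs outside the brain, and lay between 5.77 and 6.13. Of those 75 genes, 3 passed it on all 4 arrays. Probe sets respond differently to the same amount of RNA, so a brighter signal does not show a more abundant transcript. Isoforms are therefore compared by whether they passed the bound and by how they varied between samples. Quantile normalization gives each rank a fixed value, so the brightest probe sets vary little by construction.

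The Purkinje cell label was borne out by its markers: 12 of 12 measured genes, among them Calb1 and Pcp2, passed the bound on all 4 arrays. Their signals, normalized and summed on the linear scale, came to 76654 to 77818 in animal 1 and 83509 to 83574 in animal 2. The sums below are on the same normalized scale. Markers of other cells were present too. Of the Bergmann glia and astrocyte genes 12 of 17 passed on all 4 arrays, with a summed signal of 15042 to 15537 in animal 1 and 12281 to 13375 in animal 2. Granule neuron genes passed in 6 of 16 cases, with 5101 to 5988 in animal 1 and 2930 to 2940 in animal 2. Oligodendrocyte genes passed in 3 of 10 cases, with 4753 to 5035 in animal 1 and 3382 to 4289.9 in animal 2. Interneuron genes passed in 2 of 9, with 540.3 to 613.4 and 429.2 to 433.1. Microglia genes passed in 1 of 9, with 219.4 to 273.1 and 156.7 to 160.5, and blood vessel genes in 1 of 9, with 383.8 to 453.9 and 167.3 to 239.4. Red blood cell genes passed in 0 of 2, with 1.3 to 13.2 and 1.9 to 9.9. On this normalized scale the sums of these other cells, red blood cells apart, were lower in both samples of animal 2. Several of these markers were far above the bound on all 4 arrays. By mean level, the brightest glial genes were Gja1 at 11.72 and Hopx at 11.58. The brightest granule neuron genes were Zic1 at 10.52 and Gabra6 at 9.30, and the brightest oligodendrocyte genes Cnp at 11.38 and Mbp at 10.18. The glial genes Slc6a11 and Hes5, the granule neuron genes Slc17a7 and Pax6 and the myelin gene Mog lay below the bound on every array. What these cells contributed to the signals below was not tested.

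Of the 39 measured genes, 28 (71.8%) were above the bound in all 4 samples, against 27.0% of the 18193 named genes. A further 7 passed on some arrays (background 15.9%) and 4 on no array (background 57.1%). Glycolysis passed with 10 of 13 genes, lactate dehydrogenase with 2 of 2, the genes of pyruvate entry with 5 of 11 and the cycle with 11 of 13. Every cytosolic step from aldolase to pyruvate kinase that was measured had a gene that passed on all 4 arrays. The 11 genes that did not were the hexokinase Hk2, the muscle isoforms Pgam2 and Eno3, the complex component Pdhx, the kinases Pdk1, Pdk2, Pdk3 and Pdk4, the carboxylase Pcx, the NADP-dependent enzyme Idh2 and the ligase subunit Suclg2. In bulk samples such as these, fewer cells that use a gene, less of its RNA per cell and a weakly responding probe set cannot be told apart. The count was 24 with the bound at the 99th percentile and 31 at the 90th.

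**Figure D1:**
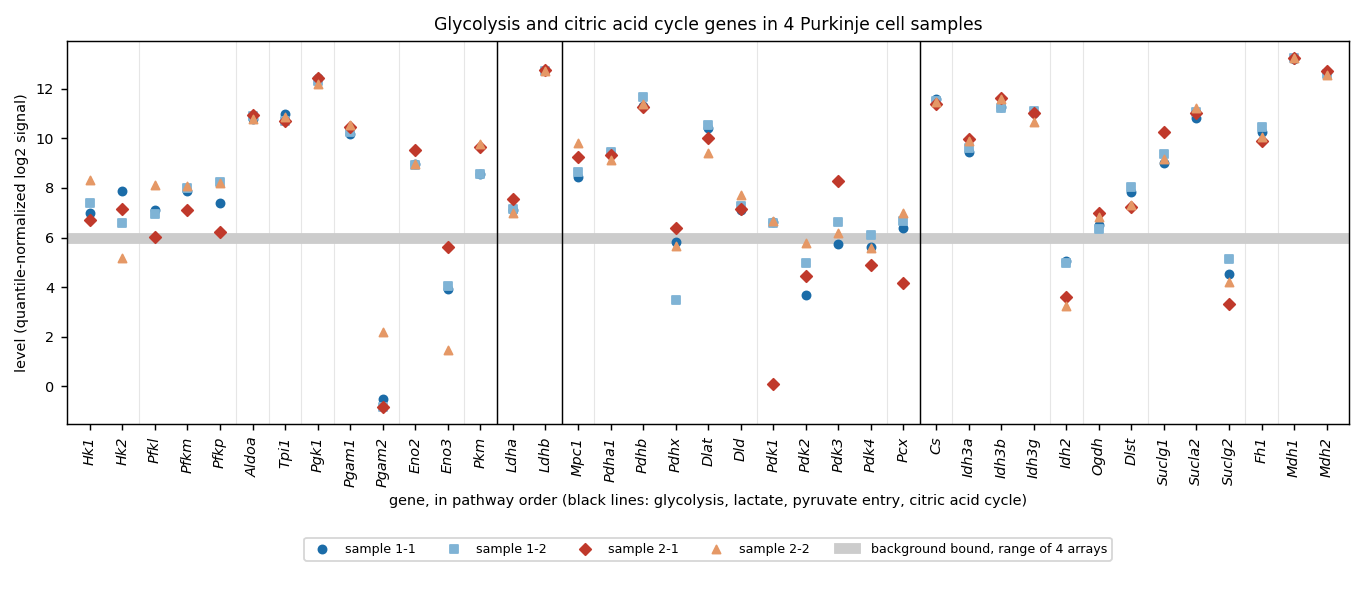
Level of each of the 39 measured genes (vertical axis, quantile-normalized log2 signal) in each of the 4 samples (points), in pathway order along the horizontal axis. The grey band is the range of the background bound over the 4 arrays (5.77 to 6.13), and Pgam2, Eno3, Idh2 and Suclg2 are the 4 genes that passed on no array.

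The signals of the 2 hexokinase genes lay close to the bound. Hk1, the hexokinase of brain, phosphorylates glucose on the outer mitochondrial membrane and read 6.99, 7.39, 6.70 and 8.34 (1437974_a_at, mean 7.35 ± 0.23). Hk2, the isoform best known from muscle and fat, read 7.87, 6.60, 7.15 and 5.17 (1422612_at, mean 6.70 ± 0.76). Sample 2-2 was the highest of the 4 for Hk1 and the lowest for Hk2, where it lay below the bound, and the animals overlapped for both genes. The second probe set of Hk1, 1420901_a_at, was below the bound on every array.

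Phosphofructokinase, the main control point of glycolysis, is a tetramer built from liver, muscle and platelet subunits. The liver-type subunit gene Pfkl read 7.12, 6.95, 6.01 and 8.11 (1439148_a_at, mean 7.05 ± 0.01). Pfkm, the muscle type, read 7.87, 7.99, 7.11 and 8.06 (1416780_at, mean 7.76 ± 0.25), and Pfkp, the platelet type, read 7.41, 8.26, 6.21 and 8.20 (1416069_at, mean 7.52 ± 0.44). All 3 subunit genes passed the bound on all 4 arrays, and all 3 were lowest in sample 2-1. Neither animal stood apart for any of them. Pfkl and Pfkp no longer passed with the bound at the 99th percentile. Of the other probe sets of Pfkl, 1450269_a_at passed on 2 arrays and 1453541_at on none. Those of Pfkp, 1437759_at and 1430634_a_at, passed on none.

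The measured steps from aldolase to phosphoglycerate kinase were far above the bound and, on their brightest probe sets, varied little. Aldoa, which cleaves fructose bisphosphate, read 10.80, 10.90, 10.96 and 10.77 (1416921_x_at, mean 10.86 ± 0.01). Tpi1, which interconverts the triose phosphates, read 10.96, 10.70, 10.69 and 10.86 (1435659_a_at, mean 10.80 ± 0.04). Pgk1, which makes the first ATP of glycolysis, read 12.43, 12.33, 12.42 and 12.18 (1438640_x_at, mean 12.34 ± 0.06). On these brightest probe sets the samples of the 2 animals overlapped for all 3 genes. On 1415918_a_at, Tpi1 read 9.86, 9.77, 10.33 and 10.52, with both samples of animal 2 above both of animal 1. The same order held on 1452927_x_at, where Tpi1 read 10.67, 10.62, 10.88 and 11.01. Pgk1 read 11.61, 11.74, 11.07 and 10.74 on 1439435_x_at, with both samples of animal 2 below both of animal 1. All 5 probe sets of Aldoa and all 3 of Tpi1 and of Pgk1 passed the bound on every array. The brightest probe set of Pgk1 and every probe set of Aldoa are of the type ending in _x_at, which can bind several transcripts. Without such probe sets Pgk1 stood at 10.56 and Aldoa could not be measured.

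The muscle isoforms of the next steps did not pass the bound. Pgam1, the brain form of phosphoglycerate mutase, read 10.19, 10.27, 10.47 and 10.55 (1426554_a_at, mean 10.37 ± 0.20), and both samples of animal 2 were above both of animal 1. Pgam2, its muscle counterpart, read -0.49, -0.81, -0.81 and 2.19 (1418373_at), below the bound on every array. Eno2, the neuron-specific enolase, read 8.95, 8.92, 9.51 and 8.98 (1418829_a_at, mean 9.09 ± 0.22), with sample 2-1 apart above the other 3. Eno3, the muscle enolase, read 3.94, 4.05, 5.63 and 1.48 (1417951_at) and stayed below the bound on every array. Pkm, the pyruvate kinase of most tissues outside the liver and red cells, read 8.58, 8.58, 9.65 and 9.76 (1417308_at, mean 9.14 ± 0.80). For Pkm the samples of an animal lay close together, while the animals lay 1.13 apart. Each of these 5 genes had 1 probe set.

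Both lactate dehydrogenase subunits passed the bound. Ldhb, the heart-type subunit, which favours the use of lactate as a fuel, read 12.76, 12.73, 12.77 and 12.71 (1434499_a_at, mean 12.74 ± 0.0048). Ldha, the muscle-type subunit, which favours lactate production, read 7.11, 7.16, 7.56 and 6.97 (1419737_a_at, mean 7.20 ± 0.09). All 4 probe sets of Ldhb ranged, by their means, from 11.26 to 12.74 and passed on every array. Ldha, with its single probe set, did not pass with the bound at the 99th percentile. Deposited signals were 6044, 5948, 7646 and 8184 for Ldhb and 112, 118, 210.2 and 170.3 for Ldha. The animals overlapped on the probe set of Ldha and on the brightest of Ldhb. On the other 3 probe sets of Ldhb both samples of animal 2 lay above both of animal 1. The deposited signals of both were higher in animal 2, as its arrays were overall.

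Many genes of glycolysis carry in their promoters the core letters of the hypoxia response element, ACGTG, to which hypoxia-inducible factors are known to bind. Letters were searched on both strands (ACGTG or CACGT) in the 250 bases before the first listed start of each gene in RefSeq (GRCm38.p6), and a CACGTG holds the motif on both strands and was counted once. The windows of 12 of 38 members held it (31.6%), against 16.6% of 27025 genes. The members' windows also held more CpG dinucleotides, with a median of 16 against 6, and the part of base composition in this share was not tested. Among members above the bound on all 4 arrays, 8 of 27 held the motif. Idh3a had no window in the table. The 4 windows printed below, with the motif in capitals, show the lactate dehydrogenase pair and the members Pgk1 and Hk2, each with several sites or, for Ldhb, none. Ldha lies at chr7:46845554-46845803 on the plus strand, Ldhb at chr6:142507958-142508207 on the minus strand, Pgk1 at chrX:106186850-106187099 on the plus strand and Hk2 at chr6:82774455-82774704 on the minus strand.
Ldha: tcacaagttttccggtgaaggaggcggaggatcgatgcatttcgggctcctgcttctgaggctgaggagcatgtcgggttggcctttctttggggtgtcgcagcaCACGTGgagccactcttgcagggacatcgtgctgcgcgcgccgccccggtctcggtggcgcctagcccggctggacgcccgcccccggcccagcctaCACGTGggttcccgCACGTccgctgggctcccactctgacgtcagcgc
Ldhb: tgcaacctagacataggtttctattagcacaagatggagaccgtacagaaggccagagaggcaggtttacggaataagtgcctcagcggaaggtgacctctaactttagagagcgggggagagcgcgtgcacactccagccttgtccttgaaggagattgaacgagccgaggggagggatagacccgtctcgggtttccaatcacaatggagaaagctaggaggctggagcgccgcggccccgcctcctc
Pgk1: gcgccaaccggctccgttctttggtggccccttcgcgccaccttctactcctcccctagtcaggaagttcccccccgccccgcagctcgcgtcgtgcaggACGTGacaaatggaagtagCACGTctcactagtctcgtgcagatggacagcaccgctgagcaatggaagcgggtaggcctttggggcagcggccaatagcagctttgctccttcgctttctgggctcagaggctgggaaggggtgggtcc
Hk2: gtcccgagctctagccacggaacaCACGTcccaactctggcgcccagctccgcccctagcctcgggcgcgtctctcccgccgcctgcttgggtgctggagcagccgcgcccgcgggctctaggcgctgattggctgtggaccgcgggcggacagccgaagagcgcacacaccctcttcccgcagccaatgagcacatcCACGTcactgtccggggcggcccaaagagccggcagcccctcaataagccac
The Ldha window held 3 sites, beginning 145, 48 and 34 bases before the start, and the Ldhb window held none. Pgk1 held 2 sites, at 150 and 131 bases, and Hk2 held 2, at 226 and 52 bases. A match is only a run of letters, and no binding was measured here. Whether the first listed start of a gene is the one used in Purkinje cells was not tested.

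Of the 11 measured genes of pyruvate entry, 5 passed the bound on all 4 arrays. Mpc1, a subunit of the mitochondrial pyruvate carrier, read 8.44, 8.66, 9.24 and 9.80 (1453651_a_at, mean 9.04 ± 0.69), and both samples of animal 2 were above both of animal 1. The pyruvate dehydrogenase complex joins a decarboxylase (Pdha1 and Pdhb), an acetyltransferase core (Dlat), a dehydrogenase shared with other complexes (Dld) and a binding protein (Pdhx). Pdhb read 11.29, 11.65, 11.25 and 11.38 (1416090_at, mean 11.39 ± 0.11), and Dlat read 10.41, 10.55, 10.01 and 9.41 (1452005_at, mean 10.09 ± 0.54). The samples of animal 2 were both below those of animal 1 for Dlat, and the animals overlapped for Pdhb. Pdha1 stood at 9.32 ± 0.13 (1418560_at) and Dld at 7.31 ± 0.18 (1423159_at), each above the bound on all 4 arrays. Pdhx read 5.83, 3.48, 6.40 and 5.65 (1456090_at) and passed only in sample 2-1.

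None of the 4 pyruvate dehydrogenase kinases, which switch the complex off by phosphorylation, passed the bound on all 4 arrays. Pdk1 read 6.61, 6.61, 0.09 and 6.66 (1423747_a_at), so that 3 samples lay between 6.61 and 6.66 and sample 2-1 lay far below them. Its other 3 probe sets, 1423748_at, 1435836_at and 1434974_at, were below the bound on every array. Pdk2, known as the broadly used form, read 3.67, 4.98, 4.43 and 5.77 (1448825_at) and passed only in sample 2-2, whose bound of 5.77 it barely exceeded. Pdk3 read 5.73, 6.62, 8.29 and 6.19 (1426410_at), below the bound only in sample 1-1 and highest in sample 2-1. Pdk4, the form induced by fasting in muscle and liver, read 5.60, 6.09, 4.90 and 5.57 (1417273_at) and passed only in sample 1-2. With the bound at the 90th percentile Pdk3 and Pdk4 passed on all 4 arrays. Pcx, pyruvate carboxylase, which refills the cycle and in brain is known mainly from astrocytes, read 6.39, 6.66, 4.16 and 6.97 (1416383_a_at) and lay below the bound only in sample 2-1. Sample 2-1 was thus the low one for Pdk1 and Pcx and the high one for Pdk3 and Pdhx.

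The opening steps of the citric acid cycle passed the bound except for the NADP-dependent enzyme. Cs, citrate synthase, read 11.60, 11.52, 11.38 and 11.45 (1450667_a_at, mean 11.49 ± 0.10), and on a second probe set, 1422578_at, it averaged 9.03. Its remaining probe set, 1422577_at, passed the bound on 1 array. The NAD-dependent isocitrate dehydrogenase is assembled from 3 kinds of subunit. Idh3b, a regulatory subunit, read 11.26, 11.23, 11.63 and 11.60 (1418885_a_at, mean 11.43 ± 0.26), with animal 2 above animal 1 in both samples. Idh3a, the catalytic subunit, stood at 9.73 ± 0.29 (1432016_a_at) and Idh3g, the other regulatory subunit, at 10.94 ± 0.16 (1416788_a_at). Idh2, the mitochondrial isocitrate dehydrogenase that makes NADPH, read 5.07, 4.99, 3.60 and 3.23 (1450048_a_at), and neither of its 2 probe sets passed the bound on any array. Ogdh and Dlst, components of the oxoglutarate dehydrogenase complex, stood at 6.66 ± 0.35 (1451274_at) and 7.61 ± 0.48 (1423710_at). Dlst read 7.86, 8.04, 7.23 and 7.31 and was lower in both samples of animal 2. Ogdh did not pass with the bound at the 99th percentile.

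Succinyl-CoA ligase, the step that makes a nucleoside triphosphate directly, pairs the shared subunit Suclg1 with either Sucla2, which forms ATP, or Suclg2, which forms GTP. Sucla2 read 10.81, 11.07, 11.04 and 11.24 (1452206_at, mean 11.04 ± 0.14). Suclg2 read 4.52, 5.12, 3.33 and 4.22 (1435841_s_at), and neither of its 2 probe sets passed the bound on any array. Suclg1 stood at 9.45 ± 0.37 (1415891_at) and passed on all 4 arrays. On its brightest probe set the ATP-forming subunit was thus above the bound in every sample, and the GTP-forming subunit was in none. This contrast rested on 1452206_at, since 1430402_at and 1447056_at of Sucla2 passed on no array. With the median over probe sets Sucla2 stood at 3.38 and Suclg2 at 2.58.

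The last steps of the cycle passed the bound on every array. Fh1, fumarase, read 10.27, 10.45, 9.88 and 10.06 (1424828_a_at, mean 10.17 ± 0.28), with both samples of animal 2 below those of animal 1. Mdh1, the cytosolic malate dehydrogenase of the malate-aspartate shuttle, read 13.21, 13.23, 13.23 and 13.22 (1454925_x_at, mean 13.22 ± 0.0054). Mdh2, the mitochondrial enzyme of the cycle, read 12.67, 12.59, 12.71 and 12.57 (1433984_a_at, mean 12.63 ± 0.0085), and the animals overlapped for both genes on these probe sets. The value of Mdh1 belongs to a probe set that can bind several transcripts, and without such probe sets it was 10.96. On the deposited scale Mdh1 read 8054, 8070, 10930 and 11525, higher in both samples of animal 2.

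How far the picture depends on the probe set was read from all 84 probe sets of the 39 genes. There were 16 genes with 1 probe set and 23 with several. Probe sets of 1 gene differed in the number of arrays above the bound for 14 of these 23 genes, and for 10 genes 1 probe set passed on all 4 arrays while another passed on none. With the median over a gene's probe sets in place of the brightest, 22 genes passed on all 4 arrays, against 16.7% of all genes. Hk1, Pfkl, Pfkp, Dld, Ogdh, Dlst and Sucla2 were lost and Pdk3 was gained. The detection of Ldhb, Idh3g, Tpi1 and Mdh2 rested on every one of their probe sets. For Mdh1, 3 of 5 probe sets passed on all 4 arrays, and 1438338_at and 1434319_at, at means of 3.42 and 1.29, passed on none. For Sucla2, 1 of 3 did, and 1430402_at and 1447056_at passed on none. The same held for 1433263_at of Dld, 1445632_at of Ogdh, 1447701_x_at of Idh3a, 1441271_at of Idh3b and 1431011_at, 1437775_at and 1430161_at of Dlst. Of the pyruvate dehydrogenase genes, 1449137_at of Pdha1 passed on 1 array and 1448214_at of Pdhb on 2. The probe sets 1433604_x_at of Aldoa, 1448172_at of Mdh1 and 1422500_at of Idh3a passed on all 4 arrays but stood 2.10, 2.27 and 2.33 below the brightest of their gene.

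**Figure D2:**
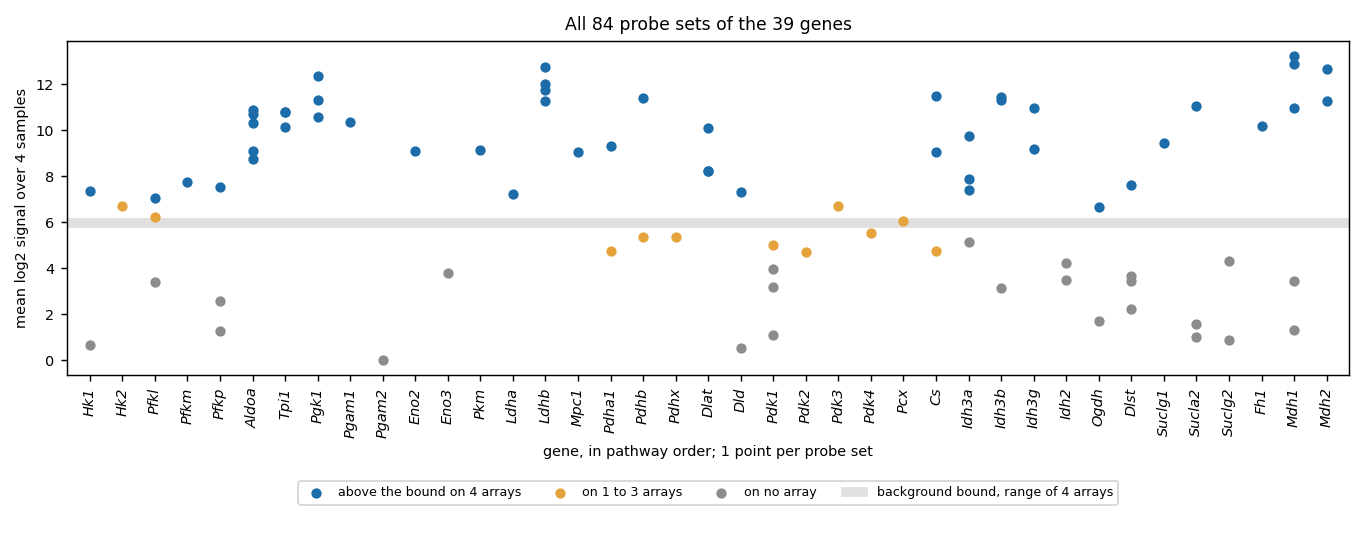
Mean log2 signal over the 4 samples (vertical axis) of each of the 84 probe sets, by gene along the horizontal axis, coloured by the number of arrays on which it passed the background bound (grey band). For 10 genes, blue points and grey points stand in the same column.

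Isoforms of a step were then followed within each array, as the log2 signal of one less that of the other. The absolute size of such a difference depends on the probe sets, so only its change between samples carries meaning. Ldhb less Ldha was 5.65, 5.57, 5.21 and 5.73, and Mdh2 less Mdh1 was -0.54, -0.64, -0.52 and -0.65, both within narrow ranges. Hk1 less Hk2 was -0.88, 0.78, -0.45 and 3.17, but Hk2 lay below the bound in sample 2-2, so the last of these differences has no measured size. Among the phosphofructokinase subunits, Pfkm less Pfkl was 0.75, 1.04, 1.10 and -0.05, and Pfkp less Pfkl was 0.28, 1.31, 0.20 and 0.09. No change between animals is given for the hexokinase pair. For the lactate and malate dehydrogenase pairs the mean difference changed from animal 1 to animal 2 by -0.14 and 0.0045, with within-animal SDs of 0.26 and 0.084. With the median over probe sets these changes were 0.11 and 0.20. The brightest probe sets of Ldhb, Mdh1 and Mdh2 are among those that vary little by construction. Pfkp less Pfkl changed by -0.65, with a within-animal SD of 0.51, and by -1.57 with the median over probe sets. Pfkp less Pfkm changed by -0.28 and by -0.93 with that median. An exact two-sided permutation test cannot reach p = 0.05 here, since the 4 samples split into pairs in only 3 ways and the smallest p is 1 in 3.

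**Figure D3:**
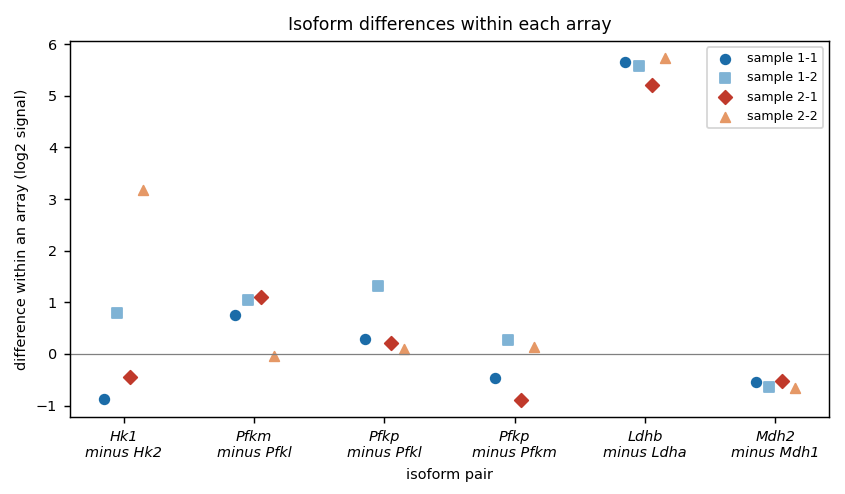
Difference in log2 signal between isoforms of a step within an array (vertical axis) for 6 pairs (horizontal axis), with 1 point per sample. The lactate dehydrogenase pair ranged from 5.21 to 5.73 and the hexokinase pair from -0.88 to 3.17, the latter in sample 2-2, where Hk2 lay below the bound.

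Animal 2 was next set against animal 1, leaving out probe sets that passed the bound on fewer than 2 arrays. Of 10443 probe sets, 42 (0.402%) were called by limma with Benjamini-Hochberg adjustment, 25 (0.239%) higher and 17 (0.163%) lower in animal 2. None of the 32 tested glycolysis and cycle genes was called on its brightest probe set. An unadjusted p under 0.05 was seen for 5 of the 32, and for 18.1% of all probe sets tested. The median difference of the 32 genes was 0.01 on the log2 scale, beside -0.07 over the brightest probe sets of all 6627 tested genes. Both samples of animal 2 lay above both of animal 1 for 7 of the 32 genes (21.9%, against 22.7% of all tested genes) and below for 6 (18.8%, against 26.5%), shares near or below the background. The 2 samples of animal 1 differed by a median of 0.15 over these genes and those of animal 2 by 0.22, beside 0.26 and 0.44 over all tested genes.

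The 5 genes with the smallest p were Pkm, Idh3b, Mpc1, Dlat and Fh1. Pkm was at 8.58 in animal 1 and 9.71 in animal 2, a difference of 1.13 with an SE of 0.21 (limma, adjusted p = 0.0772, 2 samples from each animal). Deposited signals of Pkm were 315, 322, 869 and 1122. Mpc1 differed by 0.97 ± 0.27 (adjusted p = 0.158) and Idh3b by 0.37 ± 0.09 (adjusted p = 0.130), both with positive signs for animal 2. The second probe set of Idh3b above the bound, 1418886_s_at, stood at 0.40 ± 0.10. Dlat differed by -0.77 ± 0.23 (adjusted p = 0.168) and Fh1 by -0.39 ± 0.16 (adjusted p = 0.274). Other probe sets of Dlat did not share its sign: 1426264_at stood at 0.14 ± 0.32 and 1426265_x_at at 0.07 ± 0.33. Over all 55 tested probe sets of the members 0 were called and 14 had an unadjusted p under 0.05 (25.5%, against 18.1% of all probe sets tested). Pgk1 was split: 1439435_x_at, named after its values were seen, stood at -0.77 ± 0.13 (limma adjusted p = 0.0717), while its brightest probe set stood at -0.08 ± 0.09 and 1417864_at at 0.17 ± 0.23. That probe set was called when only those passing on every array were kept (limma adjusted p = 0.0325), without sample 2-1 (0.0154), without sample 2-2 (0.0266) and with a replicate block (0.0226). Its adjusted p ranged from 0.0154 to 0.527 over the alternatives.

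The other probe sets with an unadjusted p under 0.05, likewise named after their values were seen, belong to genes whose brightest probe set stood near 0. For Tpi1, 1415918_a_at stood at 0.61 ± 0.16 and 1452927_x_at at 0.30 ± 0.12, beside -0.06 ± 0.14 on the brightest. For Ldhb, 1416183_a_at stood at 0.41 ± 0.11, 1448237_x_at at 0.27 ± 0.09 and 1455235_x_at at 0.21 ± 0.08, beside -0.01 on the brightest. Mdh2 stood at 0.35 ± 0.10 on 1416478_a_at, beside 0.01 on the brightest. Cs stood at 0.69 ± 0.21 on 1422578_at, beside -0.14 ± 0.09 on the brightest. Their limma adjusted p-values lay between 0.144 and 0.267, so none was called, and for these 4 genes the difference between animals depended on the probe set.

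These calls moved with the scale and with single samples. Without normalization, all tested probe sets together had a median 0.48 higher in animal 2. On that scale 5 of the 32 genes were called and all were higher, namely Pkm, Idh3b, Mpc1, Mdh1 and Mdh2, beside 6.08% of all probe sets. Leaving out a sample leaves its animal with 1, which is then assumed to vary like the pair of the other animal. Without sample 2-1, Pkm and Mpc1 were called higher and Dlat lower in animal 2 (9.38% of the 32 genes, beside 7.22% of all probe sets). Without sample 2-2, Pkm, Pdk3 and Suclg1 were called higher and Pcx and Pdk1 lower (15.6%, beside 9.72%). In both cases the spread came from animal 1 alone, whose samples lay closer together. All 32 genes were uncalled without sample 1-1 or 1-2, where 1 probe set in all was called each time. Pkm was also the 1 member called on its brightest probe set with arrays centred on their medians (3.12% of the 32 genes, beside 0.939% of all probe sets). The same held when the test kept only probe sets that passed on every array (3.57% of 28 genes, beside 2.43%). In the comparison of all 4 samples with the usual filter, the 10 tested granule neuron markers had a median difference of -1.25 and the 13 tested Bergmann glia and astrocyte markers -0.18, and the 12 Purkinje cell markers 0.07. Of the Purkinje cell markers 1, Pcp2, was called, higher in animal 2 (0.57, limma adjusted p = 0.0409). Rgs8 (0.56), Homer3 (0.31), Ppp1r17 (0.27), Pvalb (0.21), Pcp4 (0.08) and Car8 (0.06) shared its sign. Gng13 (-0.21), Rora (-0.13), Slc1a6 (-0.05) and Foxp2 (-0.03) had the opposite sign, and Calb1 had the same level on all 4 arrays. The part of the cell type markers in the differences above was not tested.

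**Figure D4:**
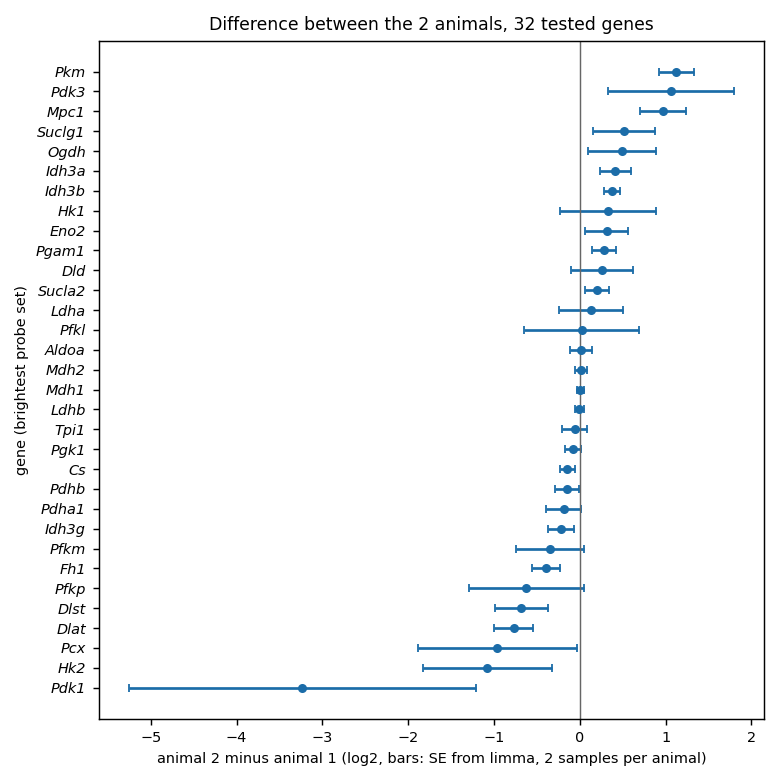
Difference of animal 2 from animal 1 on the log2 scale (horizontal axis, bars: SE from limma) for the 32 tested genes, sorted by size. Pkm lies highest at 1.13, Pdk1 lies lowest at -3.23 with the widest bar and its sample 2-1 below the bound, and Ldhb, Mdh1, Mdh2 and Aldoa lie within 0.02 of 0.

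Neighbouring pathways were read from fixed lists in the same samples. Other enzymes of the cycle passed the bound in 9 of 10 cases, with the succinate dehydrogenase genes Sdha at 11.31 ± 0.20 (SD, n = 2 animals) and Sdhb at 10.68 ± 0.22 as the brightest. Me2 stood at 6.74 ± 0.02, and the malic enzyme Me3 passed on 3 arrays. Other glycolysis genes and pyruvate regulators passed in 6 of 12 cases. Aldoc, the brain aldolase that is also the zebrin II antigen, stood at 13.13 ± 0.03, and Pdp1, a phosphatase that switches the pyruvate dehydrogenase complex back on, at 8.26 ± 0.36. Adpgk and Pgm2 were below the bound on every array. Both measured phosphatases of the complex, Pdp1 and Pdp2, passed on all 4 arrays, where none of its 4 kinases did. Pdp2 lay close to the bound, however, at 7.05, 6.36, 6.40 and 6.23. Its mean of 6.51 was below the 6.71 of the kinase Pdk3, which missed the bound only in sample 1-1. With the bound at the 90th percentile, Pdk3 and Pdk4 passed on all 4 arrays.

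Glucose and lactate transporters passed in 4 of 15 cases, beside 27.0% of all genes. The neuronal glucose transporter Slc2a3 read 9.33, 9.09, 9.12 and 9.62, and Slc2a1, the transporter of blood vessels and glia, read 9.01, 8.99, 8.35 and 8.33. Slc16a8 and Slc16a3, carriers of lactate, were below the bound on every array. So was Slc16a7 on the same list, at 1.30, 3.65, 2.97 and 2.14. Slc16a1, another lactate carrier, read 7.68, 7.37, 7.54 and 7.72 and passed on all 4 arrays, as did Bsg on the same list. Redox shuttles passed in 5 of 10 cases, including the aminotransferase Got2 at 11.23 ± 0.15 and the aspartate-glutamate carrier Slc25a12 at 8.75 ± 0.10, while the carriers Slc25a13 and Slc25a1 passed on no array. The pentose phosphate pathway passed in 4 of 7 cases, with Tkt at 10.11 ± 0.14 and Pgd at 9.37 ± 0.16 brightest and H6pd and Pgls below the bound throughout. Glycogen genes passed in 3 of 9 cases, with Ugp2 at 9.49 ± 0.44 and the brain phosphorylase Pygb at 7.79 ± 0.29 brightest. The glycogen synthase gene Gys1 and the phosphorylase gene Pygl passed on no array. Gluconeogenesis passed in 0 of 6 cases, with G6pc3 above the bound on 2 arrays, Pck2 the next brightest, and Fbp2 and G6pc dimmest. Isoenzymes restricted to testis, liver, blood or other tissues passed in 0 of 8 cases, from Eno4 and Gapdhs to Pgk2 and Pdha2. Of all tested genes in these lists, 0 were called between the animals by limma, and 0 of the members were.

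**Figure D5:**
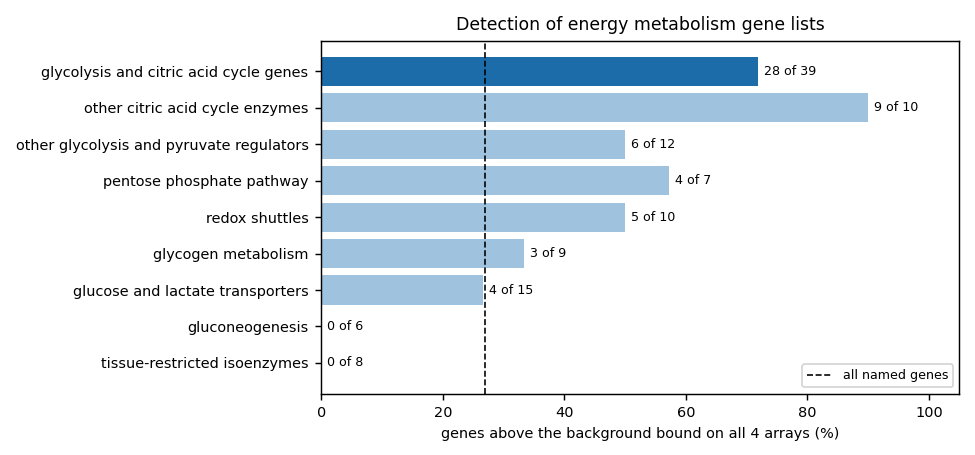
Share of measured genes above the background bound on all 4 arrays (horizontal axis, percent) for the glycolysis and citric acid cycle genes and for the neighbouring lists (vertical axis), with counts beside the bars. The dashed line is the share over all 18193 named genes, 27.0%.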

How the data were processed

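Affymetrix expression arrays were read for 4 samples of laser-captured Purkinje cells. The authors deposited a linear intensity for each probe set on each array. GCOS is the tool that the submitters' processing notes name. The sources used here give neither its version nor its algorithm or scaling target.

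Of 45101 probe sets, 64 controls were left out, 34945 had 1 gene symbol in the platform annotation, 932 several and 9160 none there. After a floor of 0.1, signals were put on the log2 scale. Arrays were quantile-normalized because their trimmed means (2% from each end) differed by 46.6% of their average. The number of arrays limits precision. Of 85 genes listed for the background bound 75 were matched.

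Animals were compared in limma 3.58.1 under R 4.3.3 (lmFit, then eBayes with trend). The fit left 2 residual degrees of freedom, and calls needed a Benjamini-Hochberg adjusted p under 0.05. The steps were tested on simulated data. All members are named. Values in every sample are given for the isoforms of hexokinase, phosphofructokinase, phosphoglycerate mutase, enolase, lactate dehydrogenase and pyruvate dehydrogenase kinase, the brightest gene of other steps, the 5 with the largest SD over animals, those below the bound on an array and the 5 with the smallest p. Up to 4 genes of each neighbouring list are named, the 2 brightest and 2 dimmest, and others after their values were seen. Members and lists were chosen with earlier results of these data known. Alternatives were other bounds, normalizations, filters, probe set choices, a fit without trend, a replicate block and leaving out each sample. Same-numbered samples of the 2 animals did not deviate together (r = -0.03 over 7448 probe sets).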

Additional observations from a re-analysis of the deposited data

Results flagged for a closer look

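In 3 of 39 genes, 1 sample stood apart from the other 3, by a gap to its nearest neighbour over the whole range that exceeded Dixon's critical value of 0.829 for 4 samples. Chance alone flags about 1 in 20 such sets. Pdk1 had a ratio of 0.992, with sample 2-1 at 0.09 and the others at 6.61 to 6.66. Eno2 had a ratio of 0.899, with sample 2-1 at 9.51 and the others at 8.92 to 8.98. Pgam2 had a ratio of 0.891, with sample 2-2 at 2.19 and the others at -0.81 to -0.49, all below the background bound.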

How the results depend on the processing

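The count of 28 genes above the bound on all 4 arrays ranged from 22 to 32 over the alternatives in bound, arrays required, scale and probe set choice, and from 28 to 30 when a sample was left out. The 42 probe sets called between animals became 634 on values as deposited (625 higher and 9 lower, against 25 and 17), 98 with arrays centred on their medians, 5 with no filter, 181 with a filter on all 4 arrays and 0 without the mean-variance trend, where 1666 had an unadjusted p under 0.05. Leaving out 1 sample gave 1 to 929 (1 without either sample of animal 1, 700 without 2-1). The count of 0 called members became 5 on deposited values, 1 with centred arrays, 1 with the filter on all 4 arrays, and 0 to 5 when a sample was left out. Fh1 changed sign on deposited values, to 0.0611. The sample number within an animal as a replicate block gave 201 calls, with 0 members on their brightest probe sets and Pgk1 on 1439435_x_at (adjusted p = 0.0226). The same number does not pair the samples. Pkm had adjusted p-values from 0.0244 to 0.629 over the alternatives. Without probe sets ending in _s_at or _x_at, 35 of 38 levels moved by less than their SD and 3 by more. With the median over probe sets, 19 of 39 moved by less and 20 by more, Sucla2 from 11.04 to 3.38. Signals near the bound limit what can be read of Hk1, Hk2, the phosphofructokinases, Ldha, Ogdh, Pcx and the Pdk genes.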

Other observations

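Slc2a13, a proton-coupled inositol transporter on the list of glucose transporters, read 6.20, 7.15, 1.58 and 1.53 on its probe set 1435387_at, above the background bound in both samples of animal 1 and below it in both of animal 2. The difference was not called by limma (adjusted p = 0.196), and its size is not measured, since animal 2 lay below the bound. This gene was chosen after its values were seen.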
